A study of Mus with 4 samples.

Results

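The genes described here are 10 components of BMP and TGF-β signalling. They are the type I receptors *Bmpr1a*, *Acvr1* and *Tgfbr1*, the type II receptors *Bmpr2*, *Acvr2a* and *Tgfbr2*, the receptor-regulated Smads *Smad3* and *Smad5*, and the inhibitory Smads *Smad6* and *Smad7*. They were taken by name from the m6A peak lists of interscapular brown adipose tissue (iBAT). The rule used no measured value, but earlier results of these data were known when the genes were chosen. Together they carried 23 of the 18400 peaks listed for *Wtap* flox/flox mice and 18 of the 18693 peaks listed for *Wtap*-BKO mice, and 9 of the 10 genes had a peak.

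The peaks came from MeRIP-seq, in which fragments of poly(A)+ RNA are pulled down with an antibody against N6-methyladenosine (m6A) and compared with the input RNA. Both groups were C57BL/6 mice on normal chow, 8 weeks old, with both copies of *Wtap* floxed. The control group (*Wtap* flox/flox) carried no Cre, and the *Wtap*-BKO group (Wtap flox/flox UCP1-iCre) carried Cre under *Ucp1* control, so that *Wtap* stays intact in cells of the tissue that do not express *Ucp1*. Each genotype was 1 pool of 8 mice, with 1 immunoprecipitate and 1 input (4 samples in all). WTAP is a subunit of the complex that writes m6A, and the comparison asks where the peaks of mice with and without it in brown adipocytes differ. With 1 pool per genotype there are no replicates and no test between genotypes. The shares below have 95% Wilson intervals that cover counting error only and take peaks of the same gene as independent. The read depth is unknown from the lists.

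In this pathway, a dimeric ligand brings type II and type I receptors together, and the type II receptor, a constitutively active serine/threonine kinase, switches on the type I receptor. The type I receptor then phosphorylates receptor-regulated Smads, which enter the nucleus with the common partner SMAD4. SMAD5 serves the BMP branch and SMAD3 the TGF-β and activin branch, while SMAD6 and SMAD7 bind receptors and block the signal and are themselves induced by it. BMP signals are known to favour brown adipocyte formation, and signalling by TGF-β through SMAD3 is known to restrain the brown fat programme.

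Transcript levels cannot be read from a peak list, and in a pooled tissue fewer cells of a type and less RNA per cell cannot be told apart. The number of peaks on cell type markers differed between the lists. For scale, 73.3% of the 10105 gene symbols with a peak had peaks in both lists, 13.5% in the *Wtap* flox/flox list only and 13.2% in the *Wtap*-BKO list only. The marker counts below also include markers without a peak. All 9 brown adipocyte markers had peaks in both lists (28 peaks in each). The equal totals hide differences by gene. *Prdm16* alone had more *Wtap* flox/flox peaks (8 and 1), 5 markers had more *Wtap*-BKO peaks and 3 had as many. In each list 6 of the 28 peaks (21.4%) were not found in the other, beside 32.2% and 32.0% over all peaks. Macrophage markers had 8 *Wtap* flox/flox and 18 *Wtap*-BKO peaks (6 of 10 genes in both lists, 3 in *Wtap*-BKO only), lymphocyte markers 1 and 7 (1 of 10 in both, 4 in *Wtap*-BKO only) and skeletal muscle markers 2 and 11 (2 of 8 in both, 5 in *Wtap*-BKO only). Endothelial markers had 14 and 19 peaks (5 of 6 genes in both, 1 in *Wtap*-BKO only), and fibroblast markers 10 and 11 (7 of 7 in both). The part of these cells in the peaks described below was not tested. *Wtap* itself had 4 peaks in each list, which says nothing about its level.

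All 9 genes with a peak had peaks in both lists, where 73.3% of the 10105 gene symbols with a peak did. *Tgfbr1*, the type I receptor for TGF-β itself, had none in either list. No peak of any other listed gene lay within its span (chromosome 4, 47353222 to 47414926), so nothing can be said of m6A on this transcript in either genotype. For scale, 45.2% of 21900 protein-coding genes had a peak in either list. A peak was counted as found when any exonic base of it was also covered, on its own strand, by a peak of the other list. By this rule 7 of the 23 *Wtap* flox/flox peaks were not found in *Wtap*-BKO mice (30.4%, interval 15.6% to 50.9%), beside 32.2% of all *Wtap* flox/flox peaks. Of the 18 *Wtap*-BKO peaks 4 were not found in *Wtap* flox/flox mice (22.2%, interval 9.0% to 45.2%), beside 32.0% of all *Wtap*-BKO peaks. Both shares lay near those of the whole lists. By gene, 5 of the 9 had at least 1 *Wtap* flox/flox peak that was not found (45.7% of all genes with such peaks did), and 4 of the 9 had at least 1 *Wtap*-BKO peak that was not found (47.5% of all).

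**Figure D1:**
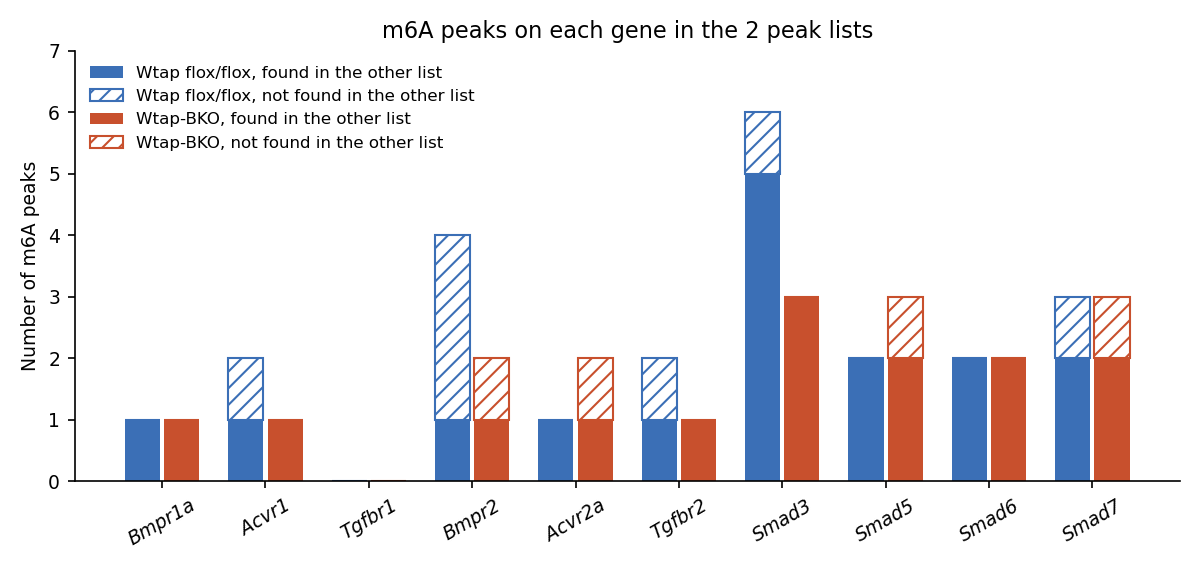
Number of m6A peaks on each gene (y axis) in the *Wtap* flox/flox list (blue) and the *Wtap*-BKO list (orange-red). Filled bars are peaks that share exonic bases with a peak of the other list, and hatched bars are peaks that do not. *Smad3*, *Bmpr2*, *Acvr1* and *Tgfbr2* had more *Wtap* flox/flox than *Wtap*-BKO peaks (6 and 3, 4 and 2, 2 and 1, 2 and 1). *Smad5* and *Acvr2a* had fewer (2 and 3, 1 and 2), and *Tgfbr1* had none.

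In exonic bases the lists were closer than in peaks. The *Wtap* flox/flox peaks of these genes covered 7361 bases and the *Wtap*-BKO peaks 6997, and 4838 bases were covered by both. That is 65.7% of the *Wtap* flox/flox bases and 69.1% of the *Wtap*-BKO bases, beside 61.4% and 67.7% over all peaks. The genes differed widely among themselves. Of all the bases covered in either genotype, 84.7% were shared on *Bmpr1a*, 81.3% on *Smad6*, 77.2% on *Acvr2a*, 70.6% on *Smad3* and 54.0% on *Acvr1*. The shared part was 41.3% on *Smad5*, 30.8% on *Smad7*, 24.9% on *Bmpr2* and 20.1% on *Tgfbr2*. *Bmpr2* and *Tgfbr2* were low because bases were covered in *Wtap* flox/flox mice only (812 and 840 bases), and *Smad7* because bases were covered in *Wtap*-BKO mice only (719 bases).

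**Figure D2:**
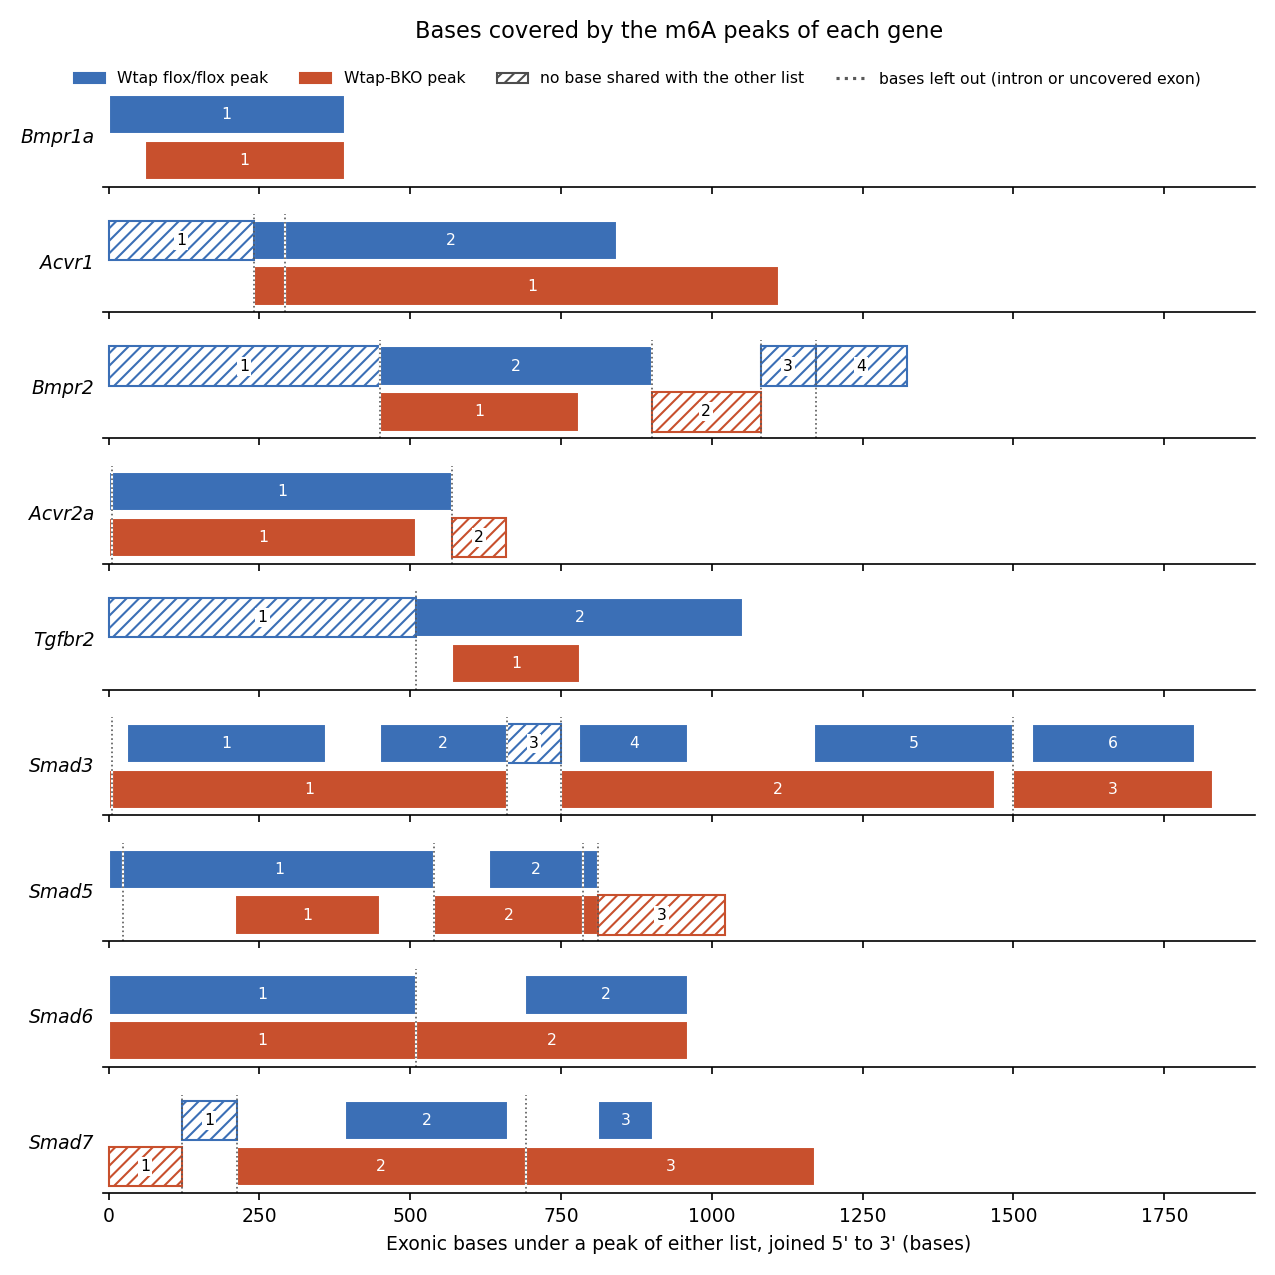
Bases under the m6A peaks of each gene. The x axis joins, from 5′ to 3′, the exonic bases covered by a peak of either list, in bases, and dotted lines mark where an intron or an uncovered stretch was left out. Bars are *Wtap* flox/flox (blue) and *Wtap*-BKO peaks (orange-red), numbered from the 5′ end, and hatched bars share no base with the other list. *Tgfbr2* kept 211 of 1051 *Wtap* flox/flox bases, and the 3 *Wtap*-BKO peaks of *Smad3* lay over 5 of its 6 *Wtap* flox/flox peaks.

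*Bmpr1a* and *Acvr1* encode type I receptors of the BMP branch, and each kept its strongest peak. *Bmpr1a* (ENSMUSG00000021796, minus strand of chromosome 14, GRCm38) had 1 *Wtap* flox/flox peak from 34414298 to 34414688, with a log10 false discovery rate (FDR) of −65.1. Its fold enrichment, the IP signal relative to input as the authors give it, was 11.5. Its 1 *Wtap*-BKO peak, from 34414298 to 34414628, had a log10 FDR of −18.5 and a fold enrichment of 4.93. The *Wtap*-BKO peak lay wholly within the *Wtap* flox/flox peak and was 60 bases shorter at its 5′ side. Fold enrichments of the 2 lists share no scale, so each peak was also placed within its own list. The *Wtap* flox/flox peak was stronger by FDR than 92.2% of its list and the *Wtap*-BKO peak than 78.6% of its own. *Acvr1* (ENSMUSG00000026836, minus strand of chromosome 2) moved the other way. Its *Wtap* flox/flox peak from 58447124 to 58448364, 601 exonic bases spliced over 2 blocks, had a log10 FDR of −25.5 and was stronger than 78.3% of its list. The *Wtap*-BKO peak on it reached 270 bases further towards the 3′ end (58446854 to 58448364, 871 exonic bases), with a log10 FDR of −35.8, stronger than 89.5% of its list. By fold enrichment its place fell, from 87.2% (16.5) to 72.8% (8.74), so the direction depends on the measure. A second *Wtap* flox/flox peak of *Acvr1*, from 58566917 to 58567157, had no *Wtap*-BKO peak on it. It was among the weaker peaks of its list (log10 FDR −2.98, stronger than 16.6%), and 102 other *Wtap* flox/flox peaks had exactly its p-value, FDR and fold enrichment (15).

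The 3 type II receptors had 7 *Wtap* flox/flox peaks, of which 4 (57.1%) were not found in *Wtap*-BKO mice, beside 32.2% of all *Wtap* flox/flox peaks. These 4 lay on *Bmpr2*, for BMPs, and *Tgfbr2*, for TGF-β, and the 1 *Wtap* flox/flox peak of *Acvr2a* was found. *Tgfbr2* (ENSMUSG00000032440, minus strand of chromosome 9) had the strongest peak by FDR of all 10 genes. This *Wtap* flox/flox peak, from 116089930 to 116090470, had a log10 FDR of −102, stronger than 95.7% of its list. Its fold enrichment of 5.44 was higher than 42.0% of the list. Only 211 of its 541 bases (39.0%) were covered by a *Wtap*-BKO peak, from 116090200 to 116090410, with a log10 FDR of −8.77, stronger than 60.2% of its list, and a fold enrichment of 1.59, higher than 2.76% of its list. The upstream *Wtap* flox/flox peak of *Tgfbr2*, from 116109686 to 116110195, had a log10 FDR of −54.6, stronger than 90.4% of its list. Its fold enrichment was 3.75, higher than only 25.0% of the list. The nearest *Wtap*-BKO peak of the gene lay 19275 bp away. Peaks as strong as this by FDR were seldom without a *Wtap*-BKO peak. Of the 1773 *Wtap* flox/flox peaks with an FDR at least as small, 137 (7.73%) had no *Wtap*-BKO peak on them.

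On *Bmpr2* (ENSMUSG00000067336, plus strand of chromosome 1) lay 4 *Wtap* flox/flox peaks but 2 *Wtap*-BKO peaks, and 1 stretch was common to both. There the *Wtap* flox/flox peak from 59867805 to 59868254 had a log10 FDR of −20.3 and a fold enrichment of 12.5, and the *Wtap*-BKO peak from 59867805 to 59868134 had −8.20 and 4.93. Both started at the same base, and the *Wtap*-BKO peak was 120 bases shorter. It was stronger than 58.1% of its list, against 73.5% for the *Wtap* flox/flox peak. A second *Wtap*-BKO peak from 59868314 to 59868494 (log10 FDR −6.27) began 59 bp beyond the end of that *Wtap* flox/flox peak and shared no base with it. The 3 *Wtap* flox/flox peaks not found were at the start of the gene, just upstream of its RefSeq span, and towards its 3′ end. The one at the start, from 59763730 to 59764179, had a log10 FDR of −6.94 and a fold enrichment of 19.5. It was stronger than 46.9% of its list. Among *Wtap* flox/flox peaks at least that strong, 17.4% had no *Wtap*-BKO peak on them. The others, from 59870562 to 59870652 and from 59873050 to 59873200, covered 91 and 151 bases, had log10 FDRs of −3.19 and −2.40 and were stronger than 19.3% and 8.65% of the list. The first of these shared its p-value, FDR and fold enrichment (15.7) with 96 other peaks.

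*Acvr2a* (ENSMUSG00000052155, plus strand of chromosome 2), a type II receptor for activins and BMPs, kept its strong peak at the same place in both lists. Its *Wtap* flox/flox peak from 48898604 to 48900157 and its *Wtap*-BKO peak from 48898604 to 48900097 both crossed a splice junction. They covered 569 and 509 bases and shared 509. The log10 FDRs were −55.9 and −38.5, and the peaks were stronger than 90.6% and 90.4% of their lists. The fold enrichment was 13.4 for the *Wtap* flox/flox peak and 25.5 for the *Wtap*-BKO peak, higher than 80.0% and 97.5% of the lists. A weak *Wtap*-BKO peak 1316 bp downstream (48901474 to 48901563, log10 FDR −2.37) had no *Wtap* flox/flox peak on it.

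*Smad3* (ENSMUSG00000032402, minus strand of chromosome 9) had the most peaks of the 10 genes, 6 in *Wtap* flox/flox mice, a number that 2.35% of all genes with a *Wtap* flox/flox peak reached. The *Wtap*-BKO list had 3, yet these covered more bases (1711 against 1413). One of them, from 63649732 to 63652486, covered bases of 2 *Wtap* flox/flox peaks, and another, from 63648684 to 63649403, of 2 more. The remaining *Wtap*-BKO peak, from 63647126 to 63647456, extended 30 bases past the *Wtap* flox/flox peak (63647156 to 63647426) on both sides. The lower peak number of *Smad3* in *Wtap*-BKO mice came with longer peaks, which covered 91.5% of the *Wtap* flox/flox bases. The strongest peaks were nearly level. Those from 63648654 to 63648983 in *Wtap* flox/flox and from 63648684 to 63649403 in *Wtap*-BKO mice had log10 FDRs of −25.9 and −26.7 and fold enrichments of 11.4 and 10.4. They were stronger than 78.6% and 85.4% of their lists. The peaks nearest the 3′ end, with −17.6 and −12.9, were stronger than 70.4% and 70.3%. The single *Wtap* flox/flox peak that was not found (63649463 to 63649552, 90 bases, log10 FDR −3.37) lay 59 bp from a *Wtap*-BKO peak.

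*Smad5* (ENSMUSG00000021540, plus strand of chromosome 13) kept both *Wtap* flox/flox peaks. The first covered 540 bases in 2 blocks joined across an intron (56703789 to 56723944), with a log10 FDR of −8.37 and a fold enrichment of 14.2. The *Wtap*-BKO peak there covered only 241 bases within the second block (56723614 to 56723854), with −10.9 and 4.76. The second pair ended at the same base, from 56727500 to 56728534 in *Wtap* flox/flox and from 56727410 to 56728534 in *Wtap*-BKO mice, with log10 FDRs of −6.12 and −7.53. Both *Wtap*-BKO peaks stood higher in their list than the *Wtap* flox/flox peaks did in theirs, at 65.8% and 55.5% against 52.1% and 43.2%. By fold enrichment the first pair ran the other way (51.0% against 82.1%) and the second the same way (53.2% against 22.7%). A further *Wtap*-BKO peak of *Smad5*, from 56740163 to 56740373 (log10 FDR −5.58, fold enrichment 2.71), lay 11628 bp from the nearest *Wtap* flox/flox peak of the gene. Of the *Wtap*-BKO peaks at least as strong, 13.6% had no *Wtap* flox/flox peak on them.

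On the inhibitory Smads 1 of 5 peaks of each list was not found in the other (20%), beside 32.2% and 32.0% over all peaks. Each of the 4 overlapping pairs stood higher by FDR in the *Wtap*-BKO list. *Smad6* (ENSMUSG00000036867, minus strand of chromosome 9) had the only pair of the 10 genes with identical positions, from 64021550 to 64022059. The log10 FDR there was −11.2 for the *Wtap* flox/flox peak and −17.1 for the *Wtap*-BKO peak, stronger than 59.4% and 77.0% of the lists. The other pair (64020622 to 64020891, and to 64021071 in *Wtap*-BKO mice) had −8.26 and −11.9, stronger than 51.7% and 68.1%. The fold enrichments went the opposite way, from 24 to 11.9 and from 8.99 to 3.99, and their places in the lists fell from 95.1% to 82.4% and from 62.5% to 42.8%. *Smad7* (ENSMUSG00000025880, plus strand of chromosome 18) had 3 peaks in each list, all of them weak to middling. The *Wtap* flox/flox peaks covered 452 bases and the *Wtap*-BKO peaks 1080. The *Wtap* flox/flox peak from 75368966 to 75369235 (log10 FDR −4.89, fold enrichment 21.7) lay within the *Wtap*-BKO peak from 75368786 to 75369265 (−5.06 and 22.8). The *Wtap* flox/flox peak from 75394019 to 75394109 (−2.33 and 12) lay within the *Wtap*-BKO peak from 75393900 to 75394378 (−5.90 and 9.86). Near the start of the gene each list had 1 weak peak, 238 bp apart and not overlapping, with log10 FDRs of −2.52 and −3.24. The stronger 5′ *Smad7* peaks shared their p-value, FDR and fold enrichment with 37 other *Wtap* flox/flox and 32 other *Wtap*-BKO peaks.

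Over the 16 overlapping pairs of the 9 genes, the *Wtap*-BKO peak stood lower in its list by FDR in 6 (46.5% of all 13772 pairs did) and lower by fold enrichment in 7 (51.1% of all). It had fewer exonic bases in 5 (50.8% of all). The median change in place by FDR was 6.39 percentage points upwards, beside 1.11 over all pairs. Among these 9 genes the receptors and the Smads differed in these counts. Of the 5 receptor pairs, 4 were lower by FDR in *Wtap*-BKO mice, including 3 of 3 on type II receptors, where all 3 *Wtap*-BKO peaks were also shorter, although on *Acvr2a* the place fell by 0.23 points and by fold enrichment it rose. Of the 11 Smad pairs, 2 were lower, both on *Smad3*, where the place fell by 2.27 and fell by 0.11 points. The *Wtap*-BKO peak was longer in 9 of the 11, beside 5386 of all 13772 pairs. The place on *Tgfbr2* fell by 35.5 points, that on *Bmpr2* fell by 15.4 and that on *Bmpr1a* fell by 13.6, the 3 widest falls. The widest rises were on weak *Wtap* flox/flox peaks of *Smad3* (85.1 points, a peak of log10 FDR −1.55 under a long *Wtap*-BKO peak) and *Smad7* (40.7 points). These are descriptions of 2 pools, with several pairs from the same gene and 2 *Wtap*-BKO peaks of *Smad3* counted in 2 pairs each. Other genes of the pathway were compared only by the place of their strongest peaks, which need not overlap. Among other type I and type II receptors it was lower in the *Wtap*-BKO list on *Acvr1b*, *Acvr1c* and *Acvr2b* and higher on *Acvrl1*. Among the remaining receptors and co-receptors it was higher on *Eng*, *Rgma*, *Rgmb* and *Bambi* and lower on *Tgfbr3*. Of the other Smads, *Smad1* and *Smad4* stood higher and *Smad2* lower.

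**Figure D3:**
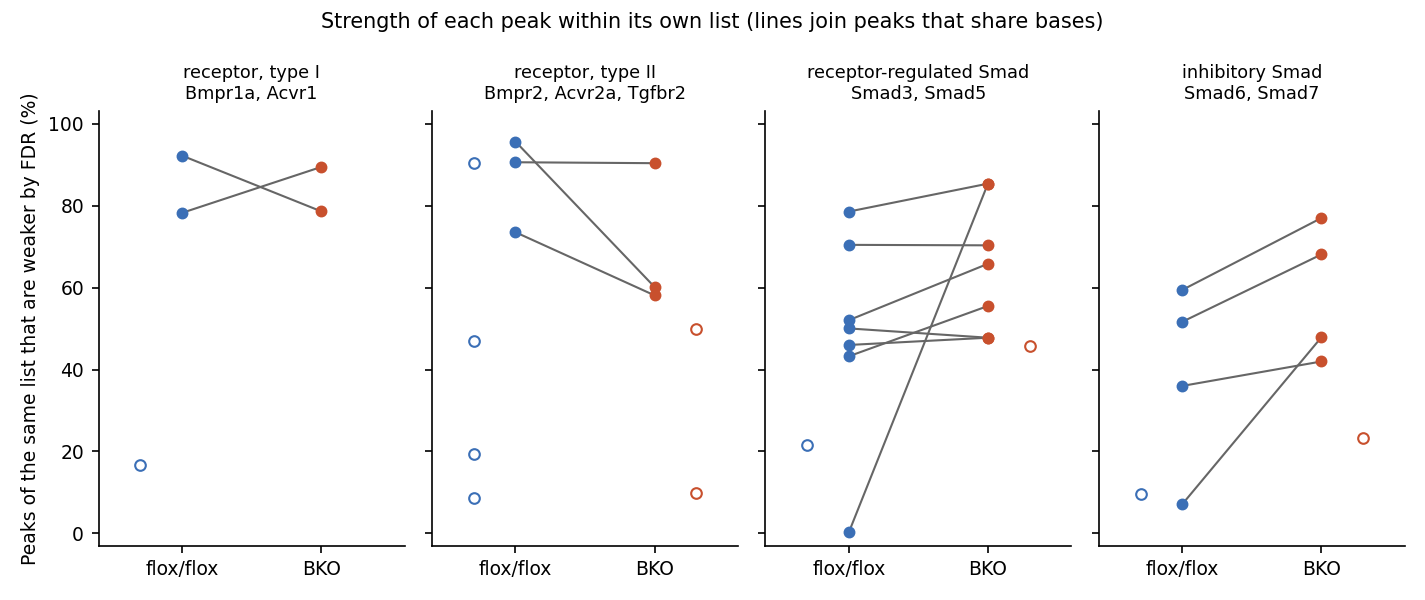
Strength of each peak as the percentage of peaks in its own list that were weaker by FDR (y axis), by role of the gene. Lines join a *Wtap* flox/flox peak (blue) to a *Wtap*-BKO peak (orange-red) that shares bases with it, and open circles are peaks that share none. Among the type II receptors the line of *Tgfbr2* falls from 95.7% to 60.2% and that of *Acvr2a* is nearly level (90.6% and 90.4%), and the 4 lines of the inhibitory Smads rise.

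As a share of the gene span, introns included, receptors and *Smad3* carried their overlapping peaks towards the 3′ end, and *Smad6* carried its peaks at the 5′ end. Peak centres of the overlapping receptor and *Smad3* peaks lay between 91.1% and 99.5% of the way along the gene span in both lists. In bases they could still be far from the end. The centres lay 10052 and 10112 bp from it on *Bmpr2*, and 3432 and 3402 bp on *Bmpr1a*. On *Smad6* the peak centres lay at 0.407% and 1.93% of the span in *Wtap* flox/flox mice, and on *Smad7* at 2.09%, 6.08% and 93.4%. All 4 *Wtap* flox/flox peaks with their centre inside a gene and within 2000 bp of its 5′ end were on *Smad6* and *Smad7*, and so were all 4 *Wtap*-BKO peaks. *Smad5* had its overlapping peaks in mid-gene, at 52.5% and 62.4%. Few centres lay at the last bases of a gene. Closer than 1000 bp to the 3′ end were 2 of 21 *Wtap* flox/flox peaks (9.52%, interval 2.65% to 28.9%), on *Acvr1* and *Smad3*, and 2 of 18 *Wtap*-BKO peaks (11.1%, interval 3.10% to 32.8%), on the same genes. Over all peaks inside genes these shares were 21.7% and 19.3%, within both intervals. With a window of 2000 bp, 3 of 21 *Wtap* flox/flox peaks (14.3%, interval 4.98% to 34.6%) were counted, and the share over all peaks (37.5%) lay above that interval. For *Wtap*-BKO peaks it was 4 of 18 (22.2%, interval 9.0% to 45.2%), with 34.0% over all peaks. These intervals take peaks of the same gene as independent, and *Smad3* alone had 6 *Wtap* flox/flox peaks. The first *Wtap* flox/flox peaks of *Acvr1* and *Bmpr2* had their centres at −208 and −324 bp relative to the RefSeq 5′ end. They lay just outside the RefSeq span, though the lists assign them to these genes. Neither was found in *Wtap*-BKO mice. Coding sequence and UTRs were not told apart here.

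**Figure D4:**
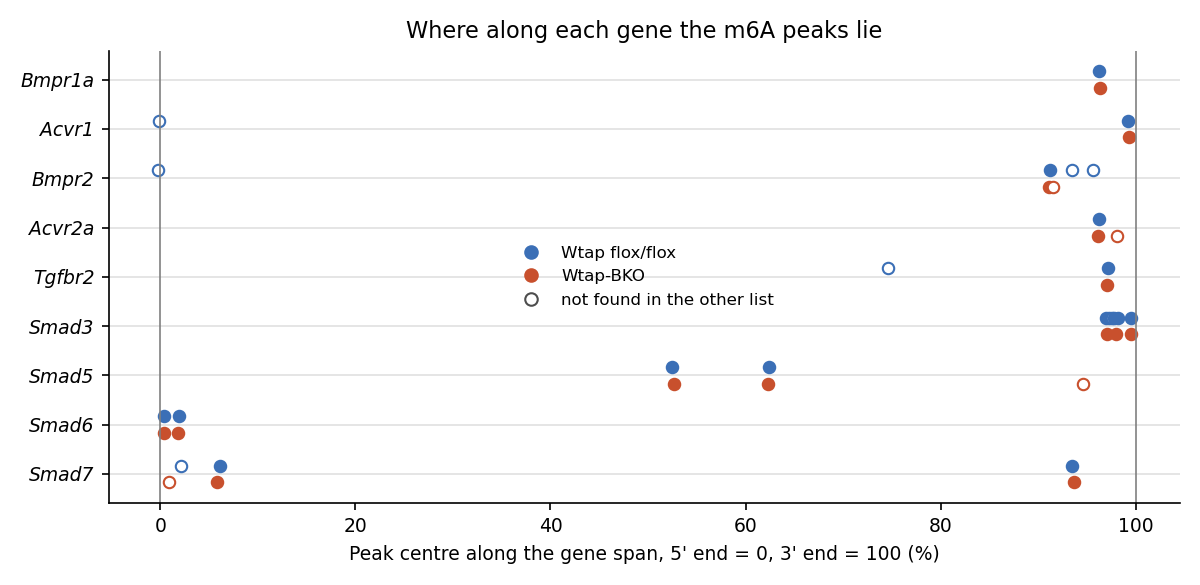
Centre of each m6A peak along the span of its gene (x axis, % of the span, 0 at the 5′ end and 100 at the 3′ end) for *Wtap* flox/flox (blue) and *Wtap*-BKO (orange-red) mice. Open circles are peaks that share no base with the other list. Overlapping peaks of the receptors and *Smad3* lie beyond 91.1%, and those of *Smad6* lie below 2% of the span.

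Of the 7 *Wtap* flox/flox peaks that were not found, 5 had an FDR above 1e-05 and were thus among the weaker ones. As a group the *Wtap* flox/flox peaks had a median log10 FDR of −7.76, beside −7.75 over the whole list, and a median fold enrichment of 11.5, beside 6.58. The *Wtap*-BKO peaks had a median log10 FDR of −8.49, beside −6.30, and a median fold enrichment of 6.70, beside 4.65. When only peaks with an FDR under 1e-05 were searched for, 2 of 15 *Wtap* flox/flox peaks were not found, the first peak of *Bmpr2* and the upstream peak of *Tgfbr2*, beside 20.4% of all such peaks. In the other direction 2 of 16 *Wtap*-BKO peaks were not found, on *Bmpr2* and *Smad5*, beside 15.4%.

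The wider pathway was read from 84 other genes, of which 63 had a peak. Both lists had peaks for 59 of these (93.7%, beside 73.3% of all symbols with a peak), the *Wtap* flox/flox list alone for 1 and the *Wtap*-BKO list alone for 3. They carried 133 *Wtap* flox/flox peaks, of which 33 (24.8%, beside 32.2% of all) were not found in *Wtap*-BKO mice. Of their 122 *Wtap*-BKO peaks 23 (18.9%, beside 32.0% of all) were not found in *Wtap* flox/flox mice. Within the pathway, secreted factors were the part most often without a peak. Their shares with a peak were near the 45.2% of 21900 protein-coding genes that had a peak in either list. Of 22 ligands, 12 had one, among them *Tgfb1*, the main TGF-β isoform of immune cells. Its strongest peaks had a log10 FDR of −28.7 in the *Wtap* flox/flox and −59.0 in the *Wtap*-BKO list. The brown fat ligands *Bmp7* and *Bmp8b* had none in either list, and *Bmp5* had 2 peaks in *Wtap*-BKO mice only (strongest log10 FDR −3.13). Of 17 extracellular regulators 8 had a peak. The smallest FDR of this role in either list was that of *Thbs1*, a matrix protein that activates latent TGF-β, with a log10 FDR of −61.2 in the *Wtap*-BKO list and −15.5 in the other, where 4 genes of the role had stronger peaks.

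At the receptors and inside the cell nearly every gene had a peak, where 45.2% of protein-coding genes did. Of 10 other receptors and co-receptors 9 had peaks in both lists, led by *Eng*, the endothelial co-receptor endoglin, with log10 FDRs of −170 and −244 and each of its 3 peaks found in the other list. Of the other Smads, *Smad1*, *Smad2* and *Smad4* had peaks in both lists and *Smad9* had none. On *Smad1*, the BMP-branch partner of *Smad5*, the strongest peaks had −33.4 and −53.0. On *Smad2*, the TGF-β-branch partner of *Smad3*, they had −45.5 and −8.19, stronger than 88.1% and 58.1% of their lists. All 20 intracellular regulators had a peak. In the *Wtap*-BKO list *Ppm1a*, a phosphatase for receptor-regulated Smads, led with −143. Its strongest peak in the *Wtap* flox/flox list had −128, behind *Ski*, a repressor of Smads, with −139. Among them *Wwp1*, an E3 ubiquitin ligase, had a single weak peak in *Wtap*-BKO mice only (log10 FDR −1.87). Of 52 *Wtap* flox/flox peaks on these regulators 18 (34.6%) were not found, a share near the 32.2% over all peaks. Nearly all peaks on target genes of the pathway were found in the other list. Of their 17 *Wtap* flox/flox and 17 *Wtap*-BKO peaks, 1 of each was not found (5.88%), beside 32.2% and 32.0% over all peaks. *Junb* led with −242 and −259, and *Id4* had 1 weak peak in *Wtap* flox/flox mice only (−2.15). *Eng* is an endothelial gene, and the part of endothelial cells in its peaks was not tested.

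**Figure D5:**
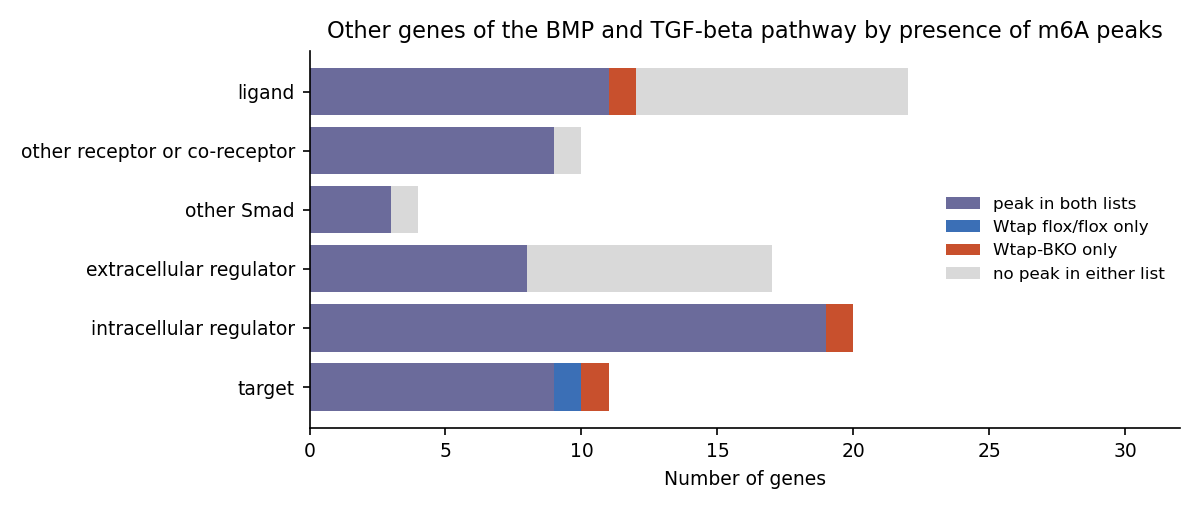
Number of other BMP and TGF-β pathway genes (x axis) by role, divided by whether m6A peaks were listed in both genotypes, in 1 of them, or in neither. Genes without a peak are ligands (10 of 22) and extracellular regulators (9 of 17) but for 2, and 4 genes had peaks in 1 list only. For scale, 45.2% of protein-coding genes had a peak in either list.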

How the data were processed

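MeRIP-seq of iBAT gave 4 samples (1 IP and 1 input per genotype, each from 8 pooled mice). The authors called peaks per genotype and deposited 2 lists, filtered at an FDR under 0.05. The methods name MACS2, and the spliced exonic blocks follow the layout of exomePeak, so the caller is not settled. The submitters' processing notes list fastp 0.19.11, BWA 0.7.12, HOMER 4.9.1 and GRCm38.p6. In the deposited lists the column headed score holds a p-value, and the others used hold the log10 of the FDR and a fold enrichment (ratio of IP over input), with scaling not described. Block edges of overlapping peaks fall on a 30-base step (within 1 base for 20 of 20 edges here), so smaller shifts cannot be seen.

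Starting from the lists, peaks were matched by shared exonic bases on the same strand (Python 3.11.15, numpy 2.4.6, scipy 1.17.1, matplotlib 3.10.9). Matching was tested on simulated data. Gene spans came from a RefSeq table of GRCm38.p6. Alternatives were other overlap rules, an FDR under 1e-05, and windows of 500 and 2000 bp. Of pathway genes, those with peaks in 1 list only and the strongest per role are named. *Bmp7*, *Bmp8b*, *Smad2*, *Smad4*, *Smad9*, *Ski* and the remaining receptors and co-receptors with peaks were added after their values were seen. The values of 1 further gene are not reported here. Members and lists were chosen with earlier results of these data known. Sequences under the peaks were not analysed here.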

Additional observations from a re-analysis of the deposited data

How the results depend on the processing

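With 1 pool per genotype no result has a test, and no replicate could be left out. No paired analysis was possible because each genotype has 1 sample. The depth is unknown, so absence of a peak says no more than that the authors' limit was not reached. Of the 7 *Wtap* flox/flox peaks not found in *Wtap*-BKO mice, the number was 0 when any peak on the same gene counted, beside 11.8% of all. It was 2 of 15 with an FDR under 1e-05 in both lists (33.8% of all such peaks). With that limit for the searched peaks only it was also 2 of 15 (20.4% of all). Among the 10000 strongest peaks of each list, a setting chosen after seeing the data, it was 2 of 14 (32.3% of all). Of the 4 *Wtap*-BKO peaks not found, the number was 0 and 2 under the first and the third of these rules, beside 11.1% and 15.4% of all. Under the second it was 4 of 16 (28.1% of all such peaks), and under the fourth 3 of 14 (30.4% of all). *Tgfbr2* and *Bmpr2* made up both remaining *Wtap* flox/flox peaks each time. Among the 10000 strongest peaks, 37 pathway genes had peaks in both lists in place of 59. Peaks within 500 bp of the 3′ end numbered 0 in both lists, and within 2000 bp the control list had 3 and the *Wtap*-BKO list 4 in place of 2 each. With at least 50% of the bases shared, 9 *Wtap* flox/flox and 5 *Wtap*-BKO peaks were not found, beside 40.7% and 37.5% of all. The number of genes with peaks in both lists was 8 in place of 9 under the 1e-05 limit, without *Smad7*, which then had a peak in *Wtap*-BKO mice only.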

Other observations

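Exact repeats of the deposited values were common among these peaks. Of the 23 *Wtap* flox/flox peaks 10 (43.5%) had the same p-value, FDR and fold enrichment as at least 1 other peak of their list, and of the 18 *Wtap*-BKO peaks 6 (33.3%) did. Over the whole lists these shares were 37.7% and 36.7%. The peaks with most repeats were the first *Wtap* flox/flox peak of *Acvr1* (102 others), the third of *Bmpr2* (96 others) and the second of *Smad7* (37 others). Over all single-block peaks that overlap on the same gene, 92.8% of 20468 pairs of edges differed by a multiple of 30 bases, within 1 base.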
